A study of Rattus norvegicus with 64 samples.

Results

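The inflammatory interleukins and tumor necrosis factor were followed in reconstructed rat bladders as a set of 10 genes, *Il1a*, *Il1b*, *Il1rn*, *Il1r2*, *Il6*, *Il10*, *Il18*, *Il33*, *Tnf* and *Osm*, chosen by name, out of 15715 genes that could be named on the array. All 10 were on the array, with 11 probes in all, because *Il1a* had 2. Each gene is described by its brightest probe. Total RNA of the augmented bladder wall was hybridized to 64 1-color arrays, 8 for each of 8 groups. All animals were male Wistar rats that had undergone hemicystectomy, removal of part of the bladder, and augmentation with a graft of about 1 cm2. The graft was bladder acellular matrix (BAM), the matrix left when the cells are removed from a bladder wall. In 4 groups it carried 10000000 adipose-derived stromal cells (ASCs), grown from retroperitoneal fat of rats of the same strain to the third passage, and in the other 4 it was BAM only. Bladders were taken 7, 30, 90 or 180 days after surgery. No unoperated bladder was used in the comparisons, so each value is set against another graft or another day.

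IL-1α, IL-18 and IL-33 belong to the IL-1 family with IL-1β, and IL-1α and IL-33 are released by damaged cells, while IL-1β and IL-18 are made as precursors that caspase-1 cuts. TNF and IL-1 act through NF-κB, whereas IL-6 and oncostatin M share the receptor chain gp130 and act through STAT3. The set also holds brakes on the response: the receptor antagonist encoded by *Il1rn*, the decoy receptor encoded by *Il1r2*, and IL-10.

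Levels are given as log2 signals relative to the 75th percentile of each array, so that 0 is the signal below which 75% of gene spots lie. Levels of different genes come from different probes and cannot be ranked against each other. Of the 58717 gene spots of an array, 35.5% to 95.6% were well above background. Local background was 42 to 52 units at 7 and 30 days, 99 to 171 in 3 of the 4 groups at 90 and 180 days, and 321 to 366 for BAM only at 90 days. Each group had a slide of its own, and no comparison here can tell slide and group apart. The 4 early slides (7 and 30 days) had 1 scan date and the 4 late slides (90 and 180 days) another. Among the arrays of 7 days, BAM only replicate 7 stood apart, with 86.1% of spots well above background. Values without it are given beside the results of that day. At 30 days seeded replicates 1 and 2 stood apart too, with 95.6% and 86.2%, and they were left out only 1 at a time. A gene was counted as a differentially expressed gene (DEG) at a Benjamini-Hochberg adjusted p below 0.01 in limma, over 30367 probes, and a fold change above 1.5. Over all probes, the graft difference had a median of -0.16 (7 days), 0.11 (30 days), -0.27 (90 days) and 0.06 (180 days) on the log2 scale, and the members' differences are to be read relative to these. As the RNA came from whole tissue, fewer cells of a type and less RNA per cell cannot be told apart.

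The start regions of *Il6*, *Il1b* and *Tnf* are shown because *Il6* was the member with the largest difference between grafts at 7 days, and *Il1b* and *Tnf* are the cytokines usually placed upstream of it. Promoter sequences from RefSeq (rat build GRCr8) were matched by symbol for 7 of the 10 members, and the 250 bases before the start site are printed 5′ to 3′ on the strand of the gene. Capitals mark a TATA motif (TATAAA), an NF-κB motif (GGGANNNNCC), an AP-1 motif (TGANTCA) or a STAT motif (TTCNNNGAA), each searched on both strands.
Il6, chr4:5894576-5894825, strand -: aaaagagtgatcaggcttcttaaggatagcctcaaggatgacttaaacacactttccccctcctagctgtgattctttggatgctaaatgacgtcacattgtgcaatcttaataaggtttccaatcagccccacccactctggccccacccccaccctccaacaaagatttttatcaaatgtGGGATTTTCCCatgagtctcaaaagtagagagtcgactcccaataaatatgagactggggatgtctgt
Il1b, chr3:137036582-137036831, strand -: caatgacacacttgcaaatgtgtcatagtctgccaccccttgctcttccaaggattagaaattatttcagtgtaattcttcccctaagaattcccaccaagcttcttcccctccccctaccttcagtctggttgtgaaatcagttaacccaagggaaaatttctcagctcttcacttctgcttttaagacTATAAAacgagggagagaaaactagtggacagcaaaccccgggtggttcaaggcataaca
Tnf, chr20:3626435-3626684, strand +: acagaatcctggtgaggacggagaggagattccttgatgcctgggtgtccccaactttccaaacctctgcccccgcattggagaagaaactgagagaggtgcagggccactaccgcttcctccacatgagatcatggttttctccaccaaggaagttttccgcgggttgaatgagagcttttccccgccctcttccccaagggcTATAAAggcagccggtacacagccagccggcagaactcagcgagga
The NF-κB motif was found in the *Il6* window, where matches on the 2 strands overlap as 1 run of capitals from position -68 counted from the start site, and in no other of the 7 members with a window. It was in 16.4% of 33469 rat promoter windows of this length. TATAAA was found for 5 of the 7 members, including *Il1b* and *Tnf*, and in 12.9% of all windows. The AP-1 motif was found for *Il1a* alone among the 7 (6.34% of all windows) and the STAT motif for none of them (7.67%). These matches describe letters, and no binding was measured.

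**Figure D1:**
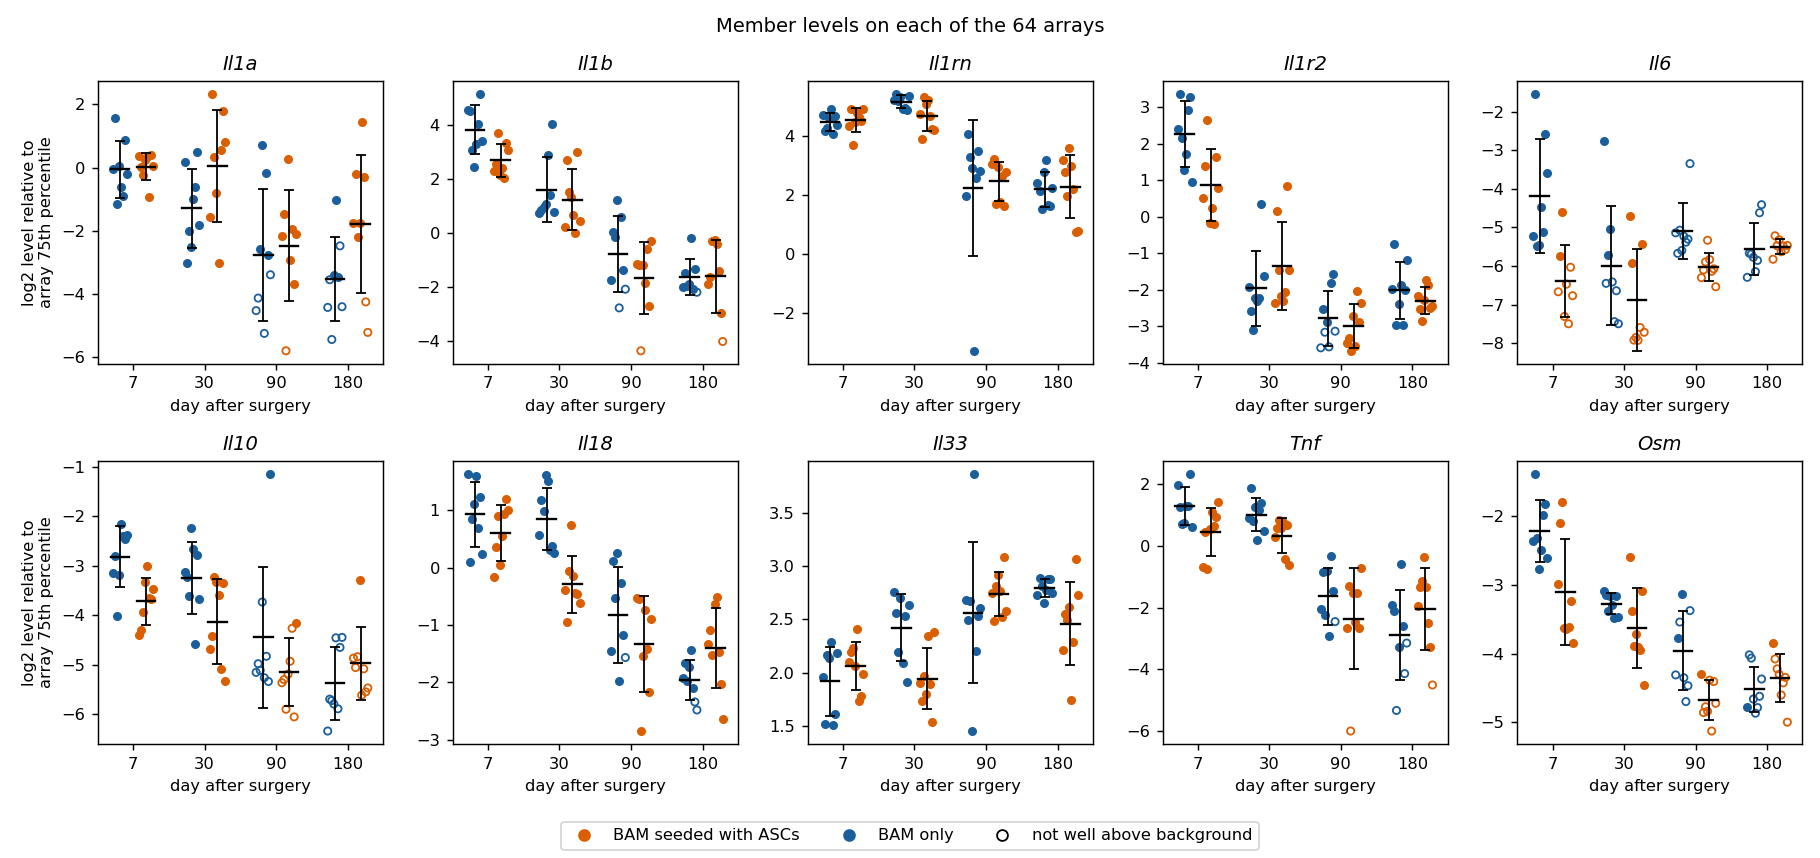
Level of each of the 10 members on the 64 arrays, as log2 signal relative to the array's 75th percentile (vertical axis, a separate scale for each gene), by day after surgery, for BAM only (blue) and BAM seeded with ASCs (orange). Black lines give the mean and SD of 8 arrays and open circles are arrays on which the probe was not well above background, which include all arrays of *Il6* at 90 and 180 days.

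ASC-seeded bladders had less *Il6* and *Osm* RNA at 7 days than bladders augmented with BAM only. The difference was 4.59-fold for *Il6* and 1.85-fold for *Osm*. These were the 2 DEGs among the 10 members, both lower, where 7.73% of all probes were DEGs and 5.62% were lower. Of the other 8, *Il1b*, *Il1r2*, *Il10*, *Il18* and *Tnf* had a lower mean and *Il1a*, *Il1rn* and *Il33* a slightly higher one, and none of them passed. The median log2 difference was -0.85 over the 10 members.

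*Il6*, the cytokine that drives the acute phase response, lay between -7.49 and -4.60 in the seeded bladders, with a median of -6.57. In BAM only bladders it lay between -5.49 and -1.54, with a median of -4.80. Thus 7 of 8 seeded bladders were below every BAM only bladder, and only seeded replicate 3 reached into the other group. The probe was well above background on 2 of 8 seeded arrays and on all 8 BAM only arrays, so much of the seeded group sits near the limit of measurement. The log2 difference was -2.20 ± 0.50 (SE) with a 95% confidence interval of -3.20 to -1.20 (limma, adjusted p = 0.00103). The difference remained past the threshold on leaving out any 1 of the 16 arrays, with adjusted p from 0.000301 to 0.00547 in limma, and was -1.97 without BAM only replicate 7.

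The size of this difference depended on how low signals were treated. It was -1.03 after normexp background correction and -1.49 after quantile normalization. With only the 16 arrays of 7 days in the fit, which estimates the spread from these groups alone, the limma adjusted p was 0.0157 and the gene was not a DEG.

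*Osm* encodes oncostatin M, a relative of IL-6 made by neutrophils and macrophages. Its level was between -3.85 and -1.80 in seeded bladders, with a median of -3.42, and between -2.77 and -1.40 with BAM only, with a median of -2.34. Of the 8 seeded bladders, 6 were below all BAM only bladders, and seeded replicates 2 and 3 lay among them. The log2 difference was -0.89 ± 0.23 (SE), 95% confidence interval -1.36 to -0.42 (limma, adjusted p = 0.00470). The call was lost on leaving out any one of 7 of the 16 arrays, BAM only replicates 2, 6 and 7 and seeded replicates 4, 5, 6 and 8. Without BAM only replicate 7 the difference was -0.83 (limma, adjusted p = 0.0151), and 1 of the 10 members was a DEG.

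Within the IL-1 group the decoy receptor came nearest to the threshold. *Il1r2*, whose product binds IL-1 without signaling, lay between -0.19 and 2.66 in seeded bladders (median 0.66) and between 0.95 and 3.36 with BAM only (median 2.28). The groups overlapped, with 5 of 8 seeded bladders below all others. The log2 difference of -1.40 ± 0.42 (SE) had a limma adjusted p of 0.0145, which became 0.00667, past the threshold, with the replicate number as a block and 0.0466 without BAM only replicate 7, where the difference was -1.26. *Il1b*, the main secreted IL-1, ranged from 2.04 to 3.73 (median 2.49) with ASCs and from 2.47 to 5.17 (median 3.75) without them, a log2 difference of -1.13 ± 0.55 (SE; limma, adjusted p = 0.156), and of -0.94 without BAM only replicate 7. *Il1rn*, which encodes the antagonist, was at 3.71 to 4.94 against 4.09 to 4.91, and its difference of 0.06 had a 95% confidence interval of -0.92 to 1.03. That interval uses a spread pooled over all 8 groups. The SD of *Il1rn* was 0.40 for seeded and 0.29 for BAM only bladders here, but 2.32 in the BAM only group of 90 days. The interval is therefore wider than the spread of the bladders compared would give. For *Il1a* the difference was 0.09 with an interval of -1.46 to 1.63.

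*Tnf*, *Il10* and *Il18* were lower in mean with ASCs and overlapped between the grafts. *Tnf* had a log2 difference of -0.82 ± 0.52 (SE; limma, adjusted p = 0.308). For *Il10*, which restrains macrophages, it was -0.91 ± 0.41 (SE; limma, adjusted p = 0.118). Without BAM only replicate 7 these were -0.67 and -0.85. *Il18* differed by -0.33 ± 0.31 and *Il33*, an alarmin held in the nuclei of barrier cells, by 0.14 ± 0.18, in both cases within the spread between arrays.

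**Figure D2:**
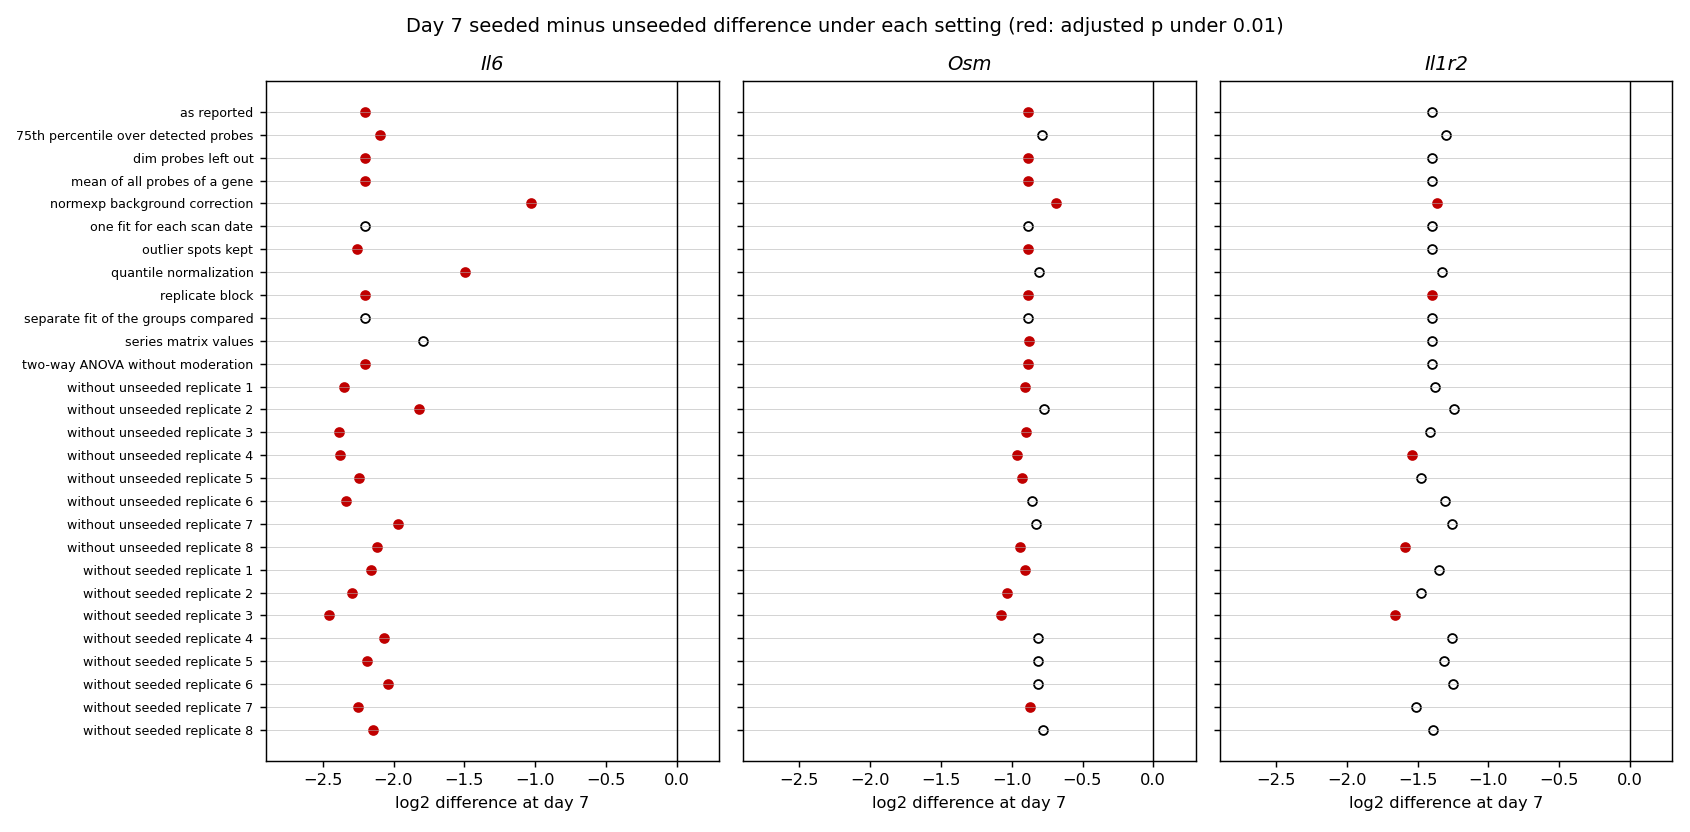
Log2 difference, seeded minus BAM only, at 7 days (horizontal axis) for *Il6*, *Osm* and *Il1r2* under each processing alternative and with each of the 16 arrays left out (vertical axis), filled red where the limma adjusted p was below 0.01. All points of the 3 genes lie below 0, and *Il6* spans -2.45 to -1.03.

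Genes around these cytokines were read from lists of receptors, inhibitors, signal transducers and targets. Of 11 receptor genes measured, 2 fell and none rose at 7 days with ASCs, where 5.62% of all probes fell and 2.11% rose. These were *Il1rl1*, the receptor of IL-33, with a log2 difference of -1.34 (limma, adjusted p = 0.00307), and *Il1rap*, the chain shared by the IL-1 and IL-33 receptors, with -1.33 (limma, adjusted p = 0.00177), whose probe was well above background on 3 of 8 seeded arrays. The gp130 gene *Il6st* differed by -0.01 and *Il6r* by -0.27, and neither passed. Of 12 processing and inhibitor genes, *Socs3*, which STAT3 induces and which blocks gp130 signaling, fell by 1.24 on the log2 scale (limma, adjusted p = 0.000664) and the others did not pass. None of 13 signal transducers was a DEG. *Myd88* (-0.49) and *Stat3* (-0.47) had limma adjusted p of 0.00183 and 0.00318 but a fold change below 1.5. The same held for *Irak3* in the inhibitor list, at -0.54 (limma, adjusted p = 0.00478). Of 14 target genes 2 fell. The targets were *Lcn2*, the iron-binding lipocalin of the acute phase, at -4.45, and *Nos2*, inducible nitric oxide synthase, at -1.33. All 14 targets had a lower mean in seeded bladders, with a median log2 difference of -0.88 beside -0.16 over all probes. Without BAM only replicate 7, *Il1rl1*, *Il1rap*, *Socs3* and *Lcn2* were still DEGs, at -1.29, -1.31, -1.05 and -4.18, while *Nos2* was at -1.15 and not a DEG (limma, adjusted p = 0.0332). In that fit 5.19% of all probes were DEGs and 13 of the 14 targets had a lower mean, with a median of -0.72.

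Among the relatives, *Il11*, which signals through gp130 like *Il6*, fell by 1.25 on the log2 scale at 7 days (limma, adjusted p = 2.4e-08), and it was the only DEG of the 4 relatives measured. It was at -1.15 without BAM only replicate 7. Of 19 other interleukins and TNF family genes, *Il13* alone was a DEG, at -1.13, a share near the 5.62% of all probes that were lower. Without BAM only replicate 7 it was at -0.96 and no longer a DEG (limma, adjusted p = 0.0420).

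Markers of other cells moved at the same time. Of 9 neutrophil markers, 3 fell (*Csf3r*, *Camp* and *Lcn2*, the last also in the target list) and all 9 had a lower mean. Their summed level was 2.93 to 4.91 in seeded and 3.89 to 6.95 in BAM only bladders, and of the defining markers *Elane* was well above background on 0 of 8 and 2 of 8 arrays. Summed macrophage markers were 6.10 to 6.73 and 6.26 to 7.23, with none of 11 a DEG. Of 7 urothelium markers 5 rose, and their sum was 5.17 to 7.11 with ASCs and 1.21 to 6.59 without. Over all probes 2.11% rose and 5.62% fell. Of 6 endothelium markers, *Vwf* and *Kdr* fell (*Kdr* by 0.68 on the log2 scale) and all 6 had a lower mean. *Pdgfrb* (-0.69) fell among 7 fibroblast markers, *B2m* (-0.76) fell among 10 housekeeping genes, and *Pparg* (0.93) rose among 5 adipocyte markers. BAM only replicate 7 was the array with the lowest urothelium sum, and without it the BAM only sums began at 3.32, while 4 urothelium markers, 2 neutrophil markers (*Csf3r* and *Lcn2*) and *Vwf* (-0.93) were DEGs. The part of these cell types in the *Il6* and *Osm* differences was not tested.

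At 30 days no member was a DEG between grafts, while 1.67% of all probes were. *Il18*, a macrophage and epithelial cytokine that induces interferon γ, came nearest. It lay between -0.94 and 0.74 with ASCs (median -0.41) and between 0.26 and 1.61 without them (median 0.78). All seeded bladders but replicate 4 were below all BAM only bladders, and the log2 difference was -1.14 ± 0.31 (SE; limma, adjusted p = 0.0158). It passed after normexp correction, in a fit of each scan date alone, and without seeded replicate 4. Of 11 macrophage markers 10 had a lower mean with ASCs, with a median log2 difference of -0.78, and their sums were 5.59 to 6.67 against 6.54 to 7.10. All 8 T cell markers had a lower mean, with a median of -0.84 and sums of 0.63 to 2.32 against 1.17 to 3.63. Other markers went the other way in mean. Of 9 neutrophil markers 7 were higher with ASCs (median 0.44), and so were all 7 urothelium markers (median 0.74). No marker of these cell types was a DEG, and their part in the *Il18* difference was not tested.

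*Il33* was lower too, at 1.54 to 2.38 (median 1.90) against 1.91 to 2.76 (median 2.55), a log2 difference of -0.48 ± 0.18 (SE; limma, adjusted p = 0.0745). *Il1a* went the other way in mean. Its difference was 1.34 ± 0.77 (SE), with seeded bladders spread from -3.01 to 2.34. Without seeded replicate 2, the array at 2.34, it was 1.02. The second *Il1a* probe differed by 1.47, and neither probe passed in limma (adjusted p = 0.263 and 0.114). *Il6*, well above background on 3 of 8 arrays in each group, differed by -0.88, *Il10* by -0.89, *Tnf* by -0.68, *Osm* by -0.35, *Il1b* by -0.36, *Il1r2* by 0.60 and *Il1rn* by -0.49. The *Il1rn* probe was saturated on 2 seeded and 3 BAM only arrays at this day, which narrows its range. Among the listed genes, *Icam1*, an adhesion molecule that NF-κB induces, fell by 0.85 and *Ctf1*, a gp130 ligand, rose by 0.89 on the log2 scale.

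**Figure D3:**
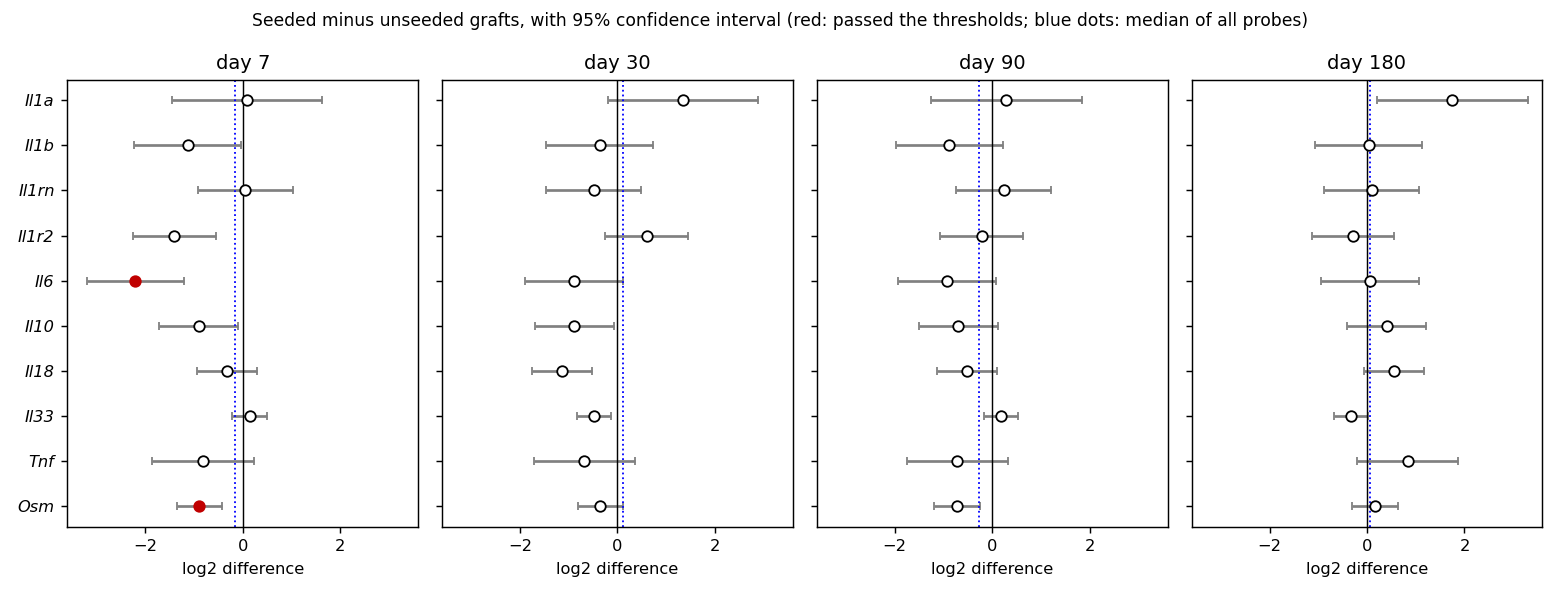
Log2 difference, seeded minus BAM only (horizontal axis) for each member (vertical axis) at each day, with 95% confidence intervals of the 64-array fit. Filled red points, *Il6* and *Osm* at 7 days, passed both thresholds, and the dotted line marks the median of all probes.

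At 90 days none of the members passed, although 12.5% of all probes were DEGs. *Osm* was nearest, with a log2 difference of -0.72 ± 0.23 (SE; limma, adjusted p = 0.0160), but its probe was well above background on 1 of 8 seeded and 2 of 8 BAM only arrays. *Il6* was well above background on no array of either graft at 90 or 180 days, and *Il10* on at most 1 of 8. *Il1rn* ranged from 1.64 to 3.22 with ASCs (median 2.72) and from -3.28 to 4.07 without them (median 2.88). The mean difference of 0.23 became -0.56 without BAM only replicate 5, the array at -3.28. *Il1b* differed by -0.88, *Tnf* by -0.72, *Il18* by -0.51, *Il33* by 0.18, *Il1r2* by -0.22 and *Il1a* by 0.29, all with 95% confidence intervals that include 0. The second *Il1a* probe was well above background on 0 of 8 seeded and 2 of 8 BAM only arrays, and its value of -0.70 is not to be read as a change. Local background was 99 to 120 units on the seeded and 321 to 366 on the BAM only slide. Over all probes 3.88% rose and 8.6% fell with ASCs. Of the listed genes well above background on all arrays of a graft, *Cdh5* (-0.87) and *Stat3* (-0.67) fell. The housekeeping genes *Actb*, *Ppia* and *Rpl13a* rose (1.04, 1.02 and 0.98). So did *Myh11*, *Actg2* and *Tagln* of smooth muscle (1.09, 1.00 and 1.00) and *Col1a2*, *Dcn* and *Col1a1* of fibroblasts (1.02, 0.76 and 0.75). Their part in the members' differences was not tested.

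At 180 days again no member passed, and 2.44% of all probes did. *Il1a* had the widest difference, with seeded bladders between -5.22 and 1.46 (median -1.75) and BAM only bladders between -5.44 and -1.03 (median -3.51). Of 8 seeded bladders 3 were above all others, the log2 difference was 1.75 ± 0.77 (SE; limma, adjusted p = 0.250). The second probe was well above background on 1 seeded and 0 BAM only arrays. *Tnf* differed by 0.83 and *Il18* by 0.56 upwards. *Il33* differed by -0.34, and in BAM only bladders it was held within 2.66 to 2.89 while seeded bladders spread from 1.75 to 3.06. For *Il1b*, *Il1rn* and *Il1r2* the differences were 0.03, 0.09 and -0.29. The 95% confidence interval for *Il1b* was -1.07 to 1.13. Of the listed genes *Il11* alone was a DEG, higher with ASCs by 0.70 on the log2 scale (limma, adjusted p = 0.00198), although it was lower with ASCs at 7 days.

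Between 7 and 30 days, 4 members fell in BAM only bladders, *Il1r2*, *Il1b*, *Il6* and *Osm*, where 8.65% of all probes were DEGs and 4.21% fell. *Il1r2* fell most, 18.5-fold, from 0.95 to 3.36 at 7 days to -3.09 to 0.35 at 30 days, so that the groups did not overlap. Its log2 difference was -4.21 ± 0.42 (SE; limma, adjusted p = 2.91e-11). *Il1b* fell 4.68-fold, and 6 of 8 bladders at 30 days were below all those of 7 days. *Osm* fell 2.08-fold, with all 8 below. *Il6* fell 3.51-fold, to a level well above background on 3 of 8 arrays at 30 days, and its log2 difference of -1.81 was -0.79 after normexp correction, where it was no longer a DEG. In limma this call was lost on leaving out any one of 8 of the 16 arrays, among them BAM only replicates 2, 7 and 8 at 7 days and replicates 2, 5, 6, 7 and 8 at 30 days (adjusted p up to 0.0287). Without BAM only replicate 7 at 7 days the differences were -4.07 for *Il1r2*, -2.03 for *Il1b* and -1.58 for *Il6*, and *Il1r2*, *Il1b* and *Osm* remained DEGs.

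In seeded bladders *Il1r2* was the 1 member that fell over the same days, 4.63-fold (log2 difference -2.21 ± 0.42 SE, limma adjusted p = 9.18e-05), where 8.06% of probes were DEGs and 1.40% fell. *Il1b* differed by -1.46 (limma, adjusted p = 0.0407) and *Il18* by -0.89 (limma, adjusted p = 0.0264), both short of the threshold. *Tnf*, *Il10* and *Il1rn* did not pass in either graft, with differences of -0.26, -0.42 and 0.68 for BAM only and -0.12, -0.41 and 0.14 for the seeded grafts. A call in one graft and not in the other does not show that they differ. The test of that difference gave 2.00 ± 0.60 (SE) for *Il1r2* (limma, adjusted p = 0.0359) and 1.31 ± 0.71 for *Il6*, and no member passed.

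Summed neutrophil markers went from 3.89 to 6.95 at 7 days to -0.29 to 2.80 at 30 days with BAM only, and from 2.93 to 4.91 to 0.41 to 4.59 with ASCs. Both are on the log2 scale of the arrays. Their part in the fall of *Il1r2* and *Il1b* was not tested.

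From 30 to 90 days most members fell in both grafts, but the scan date changed between the same days and cannot be told apart from them. In BAM only bladders 6 members fell, *Il1rn* (7.63-fold), *Tnf* (6.24-fold), *Il1b* (5.24-fold), *Il18* (3.19-fold), *Il10* (2.30-fold) and *Osm* (1.60-fold), where 44.7% of probes were DEGs, 9.49% falling. In seeded bladders 7 fell, *Il1b* (7.53-fold), *Tnf* (6.41-fold), *Il1a* (5.78-fold), *Il1rn* (4.63-fold), *Il1r2* (3.13-fold), *Osm* (2.07-fold) and *Il18* (2.07-fold), where 28.1% were DEGs, 10.3% falling. *Il33* rose there, 1.73-fold, from 1.54 to 2.38 to 2.48 to 3.09 with no overlap, and differed by 0.14 with BAM only. *Osm* was well above background on 1 or 2 arrays at 90 days and *Il10* on 1, so their falls end near the limit of measurement. With BAM only, the *Il10* call was lost in 11 and the *Osm* call in 12 of the 16 fits that leave out 1 array, with limma adjusted p up to 0.0246 and 0.0324. Both were also lost with dim probes left out and after normexp, where *Osm* was no longer a DEG in seeded bladders either, at -0.21. In seeded bladders the *Il1a* call was lost in 6 and the *Il18* call in 3 of the 16 fits that leave out 1 array. Their limma adjusted p ran up to 0.0241 and 0.0204. A separate fit lost both of these seeded calls. Normexp lost those of *Il18* and *Il1r2*, and quantile normalization those of *Il1a* and *Osm*. The *Il1rn* fall with BAM only became 4.42-fold without replicate 5 at 90 days, and its probe was saturated on 3 of 8 arrays at 30 days.

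Some other gene groups were lower at 90 days too, while others were higher. Of 11 macrophage markers 8 fell with BAM only and 5 with ASCs, with median log2 differences of -1.23 and -0.76. Of 10 housekeeping genes 6 fell with BAM only and 2 with ASCs, with medians of -0.66 and -0.025. Of 7 smooth muscle markers 5 rose with BAM only and 6 with ASCs. Of 19 other interleukins and TNF family genes 8 rose and 1 fell with BAM only, and 4 rose and 2 fell with ASCs. At most 7 of these 19 were well above background on any array of 90 days. Over all probes 35.2% rose with BAM only and 17.8% with ASCs. The part of these gene groups in the falls of the members was not tested.

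From 90 to 180 days, *Il18* fell 2.20-fold in BAM only bladders (log2 difference -1.13 ± 0.31 SE, limma adjusted p = 0.00396), where 9.39% of probes were DEGs. It lay between -1.97 and 0.26 at 90 days and between -2.48 and -1.44 at 180 days, and the ranges overlapped. The call was lost on leaving out BAM only replicate 2, 4 or 6 at 90 days or replicate 8 at 180 days, with a limma adjusted p up to 0.0160. No member passed in seeded bladders, where 4.14% of probes did, and the seeded differences ran from -0.28 for *Il33* to 0.70 for *Il1a* and *Il1r2*.

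Whether the graft difference changed with the day was tested for each of the 6 pairs of days, and *Il18* was the 1 member that passed, between 30 and 180 days. Its log2 graft difference went from -1.14 to 0.56, a change of 1.69 ± 0.44 (SE; limma, adjusted p = 0.00996), close to the threshold of 0.01. For this pair 2.68% of all probes passed. The 2 grafts of each day were scanned on the same date, but the 2 days were not. The percentage of probes that passed was 1.05% for 7 against 30 days, 6.95% for 7 against 90, 9.36% for 7 against 180, 11.4% for 30 against 90 and 11.3% for 90 against 180, and no member passed in these. *Il6* and *Osm* came nearest there, for 7 against 180 days, with changes of 2.26 ± 0.71 and 1.06 ± 0.33 (limma, adjusted p = 0.0198 and 0.0199). At 180 days *Il6* was well above background on 0 of 8 and *Osm* on 1 of 8 arrays of each graft. The 180-day side of these changes thus lies near the limit of measurement.

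Each member had its own order of groups. *Il1b*, *Il1r2* and *Osm* were highest with BAM only at 7 days, ahead of the next group by more than the larger SD of the pair. *Il6*, *Il10*, *Il18* and *Tnf* were also highest in that group, but the next group lay within that SD. For *Il6* the next group was BAM only at 90 days, where its probe was well above background on 0 of 8 arrays. That place in the order is not to be read as a level of *Il6*. *Il1rn* was highest with BAM only at 30 days and *Il1a* with ASCs at 30 days, again within the SD of the group below. *Il33* ran against the rest. It was lowest with BAM only at 7 days, at a mean of 1.92 ± 0.32 (SD, n = 8), and highest with BAM only at 180 days, at 2.80 ± 0.08. At both ends the neighboring group lay within the larger SD of the pair.

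Some pairs of members varied together among bladders of the same group, while others went in opposite directions or had r near 0. Over the 32 arrays of 7 and 30 days, deviations from the group means correlated with Pearson's r = 0.81 for *Il1b* and *Il1r2*, 0.68 for *Il6* and *Osm*, 0.60 for *Il1a* and *Il1r2* and 0.55 for *Il1a* and *Il1b*. *Il33* went against *Il1b* (r = -0.65). *Il1r2* went against *Il1rn* (r = -0.54), and *Tnf* and *Osm* had r = -0.08. *Il1rn*, whose product opposes IL-1β, had r = -0.39 against *Il1b*. Over the 32 arrays of 90 and 180 days the same pair had r = 0.59, and *Il1b* had r = 0.86 with *Il18* and 0.80 with *Tnf*, beside 0.03 and 0.30 at the early days. These values describe arrays that share slides and a common scaling, and the later days hold arrays on which several probes were dim. The *Il6* probe was dim at the early days too. It was well above background on 2 of 8 seeded and 8 of 8 BAM only arrays at 7 days. At 30 days this held for 3 of 8 arrays of each graft. Its r with *Osm* thus rests in part on signals near the limit of measurement.

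**Figure D4:**
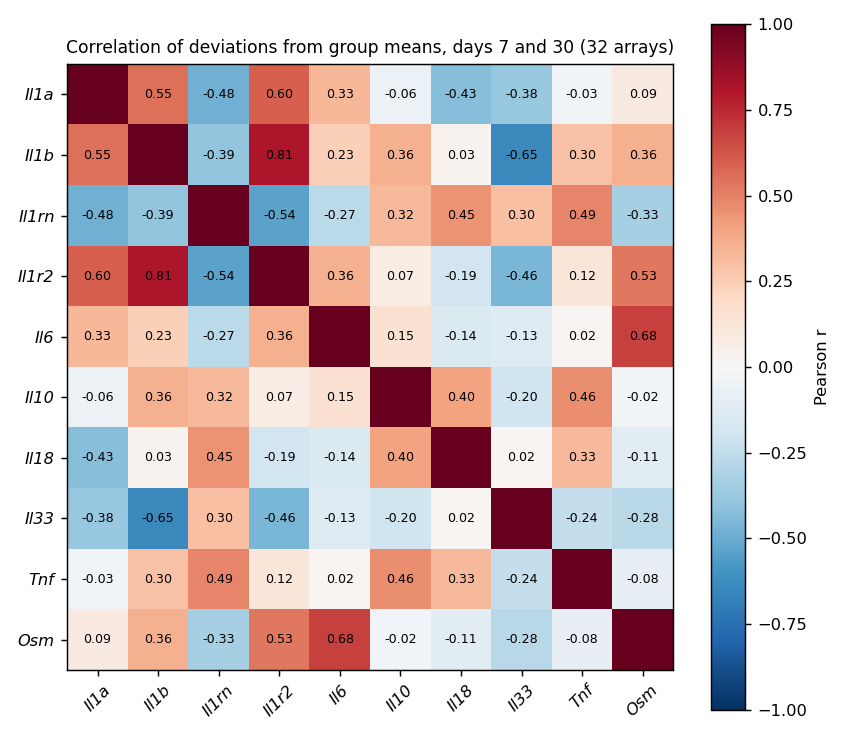
Pearson's r between members (both axes) of the deviations from the group mean over the 32 arrays of 7 and 30 days, from blue at -1 to red at 1. The highest values are 0.81 for *Il1b* with *Il1r2* and 0.68 for *Il6* with *Osm*. The *Il6* probe was not well above background on many of these arrays.

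Genes nearest to the members by such deviations over all 64 arrays were sought among 5225 named genes for the 7 members well above background on at least 48 arrays. *Il18* was nearest to *RT1-DMb*, an MHC class II chaperone (r = 0.82), *Slfn2* and *Cd47*. *Tnf* was nearest to *Snx20*, *Ptprc*, the leukocyte antigen CD45 (r = 0.77), and *Ncf4*, a subunit of the phagocyte oxidase (r = 0.77). *Il1rn* was nearest to *Atp6v1b2* (r = 0.87), *Capg* and *Trpv2*, and *Il1b* to *Tacc3* (r = 0.78), *Plac8* and *Akna*. *Il33* was nearest to the transcription factor gene *Nfib* (r = 0.81), *Tacc1* and *Sorcs2*. *Il1r2* and *Il1a* had weaker neighbors, *Slc35b1* at r = 0.71 and *Mcm3* at r = 0.69. By the 8 group means the nearest genes were others, such as *Cd47* for *Il18* (r = 0.994) and *Hmgb2* for *Tnf* (r = 0.996), but 8 means that fall into an early and a late scan leave many genes alike.

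The spread between bladders was larger than that between spots. The probes of *Il1a*, *Il1b* and *Il6* were printed 10 times on each array and those of the others 2 times. The median SD between spots of 1 array was 0.08 for *Il1b* and 0.15 for *Il6*, while the median SD between arrays of a group was 1.17 and 0.83. *Osm* had the narrowest margin, with 0.21 between its 2 spots and 0.40 between arrays.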

How the data were processed

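For each of 64 arrays, the authors deposited scanner output from Agilent Feature Extraction 12.0.1.1. Its processed signal is a linear, background-corrected intensity with no scaling between arrays. A series matrix holds the same intensity, except that the columns of seeded replicates 2 to 4 at 7 days are shifted by -3.30 to -3.29 on the log2 scale and that of BAM only replicate 1 at 180 days is partly empty. Signals were taken to log2 here, and the 75th percentile over the gene spots was subtracted on each array. Control and outlier-flagged spots did not enter the mean of a probe's spots. No pseudocount was used. On an array a probe was well above background if that held for 0.5 or more of its spots. Genes were named through RefSeq accessions and the table of build GRCr8. The labels give 10 rats per group, of which 8 have an array, so p-values measure the spread between bladders.

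A model of 8 group means was fitted to all 30367 probes on the 64 arrays (limma 3.58.1, R 4.3.3) and tested on simulated data. Contrasts were seeded minus BAM only at each day, later minus earlier day within a graft, and the change of the graft difference between days, the last called by adjusted p alone. Motifs were searched with Python 3.11.15.

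The members and lists were chosen with earlier results of these data known. Named genes were all members, up to 3 DEGs of each list and day by size that were well above background on all arrays of a group, and the 3 nearest genes of each member. The alternatives were normexp with an offset of 50, quantile normalization, another percentile, the matrix, other thresholds, probe and spot choices, separate fits, the methods' 2-way analysis of variance, the replicate block and leaving out each array. One fit for each scan date, and the lists without BAM only replicate 7 at 7 days, were added after seeing the data. The number of arrays limits the precision.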

Additional observations from a re-analysis of the deposited data

Results flagged for a closer look

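In 80 groups of 8 arrays (10 members in 8 groups), 7 held an array whose gap to its nearest neighbor took up more of the range than Dixon's 95% critical value, and chance gives about 1 in 20. For BAM only at 90 days, *Il1rn* was lowest in replicate 5, at -3.28 beside 1.98 for the next array, and *Il6* and *Il10* were highest in replicate 8, at -3.35 beside -5.07 and at -1.15 beside -3.73. That replicate 8 was also the array with the fewest spots well above background, 35.5%. *Il1r2* was highest in BAM only replicate 7 at 30 days, at 0.35 beside -1.63, and *Il1b* in BAM only replicate 5 at 180 days, at -0.17 beside -1.32. In seeded bladders, *Il10* was highest in replicate 4 at 180 days, at -3.29 beside -4.83, and *Tnf* lowest in replicate 3 at 90 days, at -5.99 beside -2.65.

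The graft difference of *Il18* changed between 30 and 180 days by 1.69 on the log2 scale, by the test of the change itself in limma (adjusted p = 0.00996). No member passed this test with a percentile over detected probes, quantile normalization, the series matrix or the analysis of variance, and the count of members that passed moved in 45 of the 64 fits that leave out 1 array.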

How the results depend on the processing

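Of 752 log2 differences recomputed under alternatives other than leaving out an array, 706 kept their direction and their side of the threshold, 29 lost and 10 gained the call, and 7 reversed, none of which had passed. Other thresholds, separate fits, the replicate block and the analysis of variance leave the log2 difference itself unchanged. They can move only the call. The mean over all probes of a gene can change the difference of *Il1a* only. The 706 therefore includes many values whose direction could not change. The count of member DEGs at 7 days, 2, was 1 with a percentile over detected probes, quantile normalization, the series matrix or a 2-fold threshold, and 0 with a separate fit of the day or of each scan date. It was 3 after normexp, with the replicate block and at an adjusted p below 0.05. At 30 days the count of 0 became 1 at an adjusted p below 0.05, after normexp and with a fit of each scan date. At 90 days it became 1 at an adjusted p below 0.05 and 2 with a fit of each scan date. For seeded bladders it went from 1 to 3 at an adjusted p below 0.05 between 7 and 30 days, and from 8 to 5 after normexp between 30 and 90 days. For BAM only between 90 and 180 days the 1 DEG became 0 with dim probes left out, a separate fit or a fit of each scan date. The 1 change of graft difference became 0 with detected probes, quantile normalization, the series matrix or the analysis of variance, 3 after normexp and 6 at an adjusted p below 0.05. The cause was not tested.

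Reversed values were 0.044 for *Il10* and 0.36 for *Il6* at 90 days and -0.083 for *Il6* at 180 days after normexp, -0.033 for *Il6* and -0.049 for *Il1b* at 180 days after quantile normalization, -0.025 for *Il1b* at 180 days with detected probes, and -0.20 for *Il1a* at 90 days over the mean of its probes. With each array left out in turn, counts of member DEGs between grafts ran from 1 to 3 at 7 days, from 0 to 1 at 30 days and from 0 to 1 at 90 days. They ran from 0 to 1 for BAM only between 90 and 180 days, from 4 to 6 for BAM only and from 6 to 8 for seeded bladders between 30 and 90 days, and from 0 to 2 for the change of graft difference, which moved in 45 of 64 such fits. Graft differences that changed sign ran from -0.070 to 0.32 for *Il1a* at 7 days, from -0.10 to 0.79 for *Il1a* and from -0.56 to 0.49 for *Il1rn* at 90 days, and at 180 days from -0.16 to 0.38 for *Il1b*, from -0.093 to 0.31 for *Il1rn* and from -0.047 to 0.22 for *Il6*.

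The replicate number is a position on the slide. Same-numbered arrays of the 2 grafts had correlations of deviations between -0.47 and 0.53. Their means were 0.0015, 0.11, 0.069 and 0.0071 at 7, 30, 90 and 180 days. For arrays of unlike number the means were 0.0028, -0.013, -0.0068 and 2.2e-05. These correlations alone do not settle whether the numbers pair the bladders, and the main fit used no pairing. With the replicate block *Il1r2* was a DEG at 7 days (limma, adjusted p = 0.00667), and the count was 1 at 90 days.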
